A study of Homo sapiens with 6 samples.

Results

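The S100 genes encode small calcium-binding proteins with paired EF-hand motifs, most of which work as dimers that change shape when calcium binds and then attach to a partner protein. They act inside the cell on the cytoskeleton and on membrane-associated annexins, and several are also secreted and read by surface receptors. Most human S100 genes lie in a cluster on the long arm of chromosome 1, and many of them are known to be expressed at high levels in epithelial tumors. The 10 genes described here, S100A2, S100A3, S100A4, S100A6, S100A8, S100A9, S100A10, S100A11, S100A16 and S100P, were selected by symbol from the 59008 genes of the table. No measured value served as a criterion, but earlier results of these data were known when they were chosen. All 10 were found, and 8 of them reached a mean of 1 TPM (transcripts per 1000000, a level corrected for transcript length and library size).

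Hey and SKOV3, both established human ovarian cancer cell lines, were sequenced as parental cells, as polyploid giant cancer cells (PGCCs) and as daughter cells, giving 6 libraries. Parental cells were untreated. PGCCs, the enlarged cells that survive the drug, had received 500 nM paclitaxel, a microtubule-stabilizing agent, for 16 h and had recovered for 3 days per the treatment label, although the SKOV3 PGCC library is titled day 7. Daughter cells had received the same treatment and recovered for 30 days, and both daughter libraries are titled clone 1, so each may represent a single clone. With 1 library per condition there were no replicates, so levels and differences between single libraries carry no error, a comparison of states is repeated only by the other cell line, and in these bulk samples fewer expressing cells and less RNA per cell cannot be told apart.

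The cells carried some epithelial and ovarian markers, and other markers of both lists were near 0 in Hey. The 6 epithelial markers summed to between 1036 and 3161 TPM per library, carried mainly by the keratins KRT7, KRT8 and KRT18 and in SKOV3 also by KRT19. In SKOV3 KRT19 was 292, 711 and 80.2 TPM in parental cells, PGCCs and daughter cells. In Hey CDH1 (E-cadherin) was at most 0.0283 TPM, EPCAM at most 1.43 TPM and KRT19 at most 3.60 TPM. The 5 ovarian markers summed to between 59.2 and 190.5 TPM, and PAX8, a lineage factor of Müllerian epithelium, was at 54.7 TPM or more in every library, whereas WT1 was at most 4.10 TPM and MUC16 at most 1.59 TPM in any library. The 8 leukocyte markers summed to between 2.11 and 70.7 TPM, of which CD68 made up nearly all except in SKOV3 daughter cells, where it was at 0.840 TPM, with MPO, CSF3R and FCGR3B at 0 in all 6 libraries. The 6 fibroblast markers summed to at most 22.9 TPM. The 6 squamous markers, listed because S100A2 is known from squamous cells, summed to at most 0.295 TPM in Hey and to between 30.7 and 89.4 TPM in SKOV3, where S100A2 was also higher. Within SKOV3 the squamous sum was lowest in parental cells and highest in daughter cells. KRT5 carried this order, at 23.3, 39.4 and 85.6 TPM in parental cells, PGCCs and daughter cells. KRT14, at 5.64, 10.7 and 3.29 TPM, and KRT6A and TP63, both under 1 TPM, were instead lowest in daughter cells. S100A2 was highest in parental cells and lowest in daughter cells. Mitochondrial genes took between 2.64% and 14.8% of the TPM.

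Of the 10 genes, 9 lie on chromosome 1 and S100P lies on chromosome 4 (chr4:6693878-6697170, plus strand; positions are those of GENCODE release 44 on GRCh38). S100A10 (chr1:151982915-151993859) and S100A11 (chr1:152032506-152047907) stand apart at one end of the cluster. S100A9 (chr1:153357854-153361023) and S100A8 (chr1:153390032-153391073) follow. S100A6 (chr1:153534599-153536244), S100A4 (chr1:153543613-153550136), S100A3 (chr1:153547329-153549258) and S100A2 (chr1:153561108-153567890) then lie within 33.3 kb, with S100A16 (chr1:153606886-153613145) beyond them. Of the 9, 8 are read from the minus strand. S100A3 lies wholly inside the annotated span of S100A4 on the same strand, so the division of reads between the pair is uncertain.

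Promoter windows are shown for 4 genes, chosen because S100A2 and S100A4 were lower in the daughter cells of both lines, S100A6 mainly in those of SKOV3, and S100A10 stayed within 2-fold of parental cells in both. Each is a RefSeq window of 300 bases on GRCh38.p14, from 250 bases before to 50 bases after the annotated start, read 5′ to 3′ on the minus strand. Capitals mark matches, on either strand, to TATAAA, to the GC box GGGCGG, to the AP-1 motif TGANTCA or to the CCAAT box CCAAT.
S100A4 (chr1:153545757-153546056): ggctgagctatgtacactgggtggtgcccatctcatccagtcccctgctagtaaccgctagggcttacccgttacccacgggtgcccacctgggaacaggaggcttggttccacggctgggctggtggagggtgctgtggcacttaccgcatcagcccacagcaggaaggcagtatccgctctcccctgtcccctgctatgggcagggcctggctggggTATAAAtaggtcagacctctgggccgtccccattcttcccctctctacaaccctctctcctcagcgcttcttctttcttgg
S100A6 (chr1:153535942-153536241): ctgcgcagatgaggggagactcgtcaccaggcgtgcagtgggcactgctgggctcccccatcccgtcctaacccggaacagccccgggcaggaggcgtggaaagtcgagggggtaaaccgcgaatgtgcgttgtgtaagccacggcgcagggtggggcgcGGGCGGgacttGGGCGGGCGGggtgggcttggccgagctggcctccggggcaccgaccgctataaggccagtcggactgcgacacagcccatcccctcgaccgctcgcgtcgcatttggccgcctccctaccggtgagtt
S100A2 (chr1:153565795-153566094): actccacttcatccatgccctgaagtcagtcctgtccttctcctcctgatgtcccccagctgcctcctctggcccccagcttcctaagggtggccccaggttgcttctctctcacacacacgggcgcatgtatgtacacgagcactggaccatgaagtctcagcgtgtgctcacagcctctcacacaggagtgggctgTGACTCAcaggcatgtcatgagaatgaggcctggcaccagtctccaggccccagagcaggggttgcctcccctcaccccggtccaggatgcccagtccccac
S100A10 (chr1:151993810-151994109): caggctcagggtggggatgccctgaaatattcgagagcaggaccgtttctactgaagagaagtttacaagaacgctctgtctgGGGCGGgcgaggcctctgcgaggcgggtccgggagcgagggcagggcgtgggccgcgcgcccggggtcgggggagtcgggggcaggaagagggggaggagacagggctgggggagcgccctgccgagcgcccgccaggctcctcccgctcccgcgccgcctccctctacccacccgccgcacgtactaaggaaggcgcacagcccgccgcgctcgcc
The S100A4 window held 1 TATAAA match, which 11.5% of the 35116 promoter windows hold, and 8 CpG dinucleotides against a median of 14. The S100A6 window held 3 GC box matches and the S100A10 window held 1, a motif found in 45.0% of windows, with 31 and 32 CpG dinucleotides. The S100A2 window shown held 1 AP-1 match, found in 7.71% of windows, and 5 CpG dinucleotides. Another S100A2 window, of a different annotated start (chr1:153563838-153564137), held 0 matches to any of these motifs and 4 CpG dinucleotides. None of the 4 windows shown held CCAAT, found in 34.6%, and these matches are descriptions of letters, not of bound factors.

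S100A6 (calcyclin), which binds annexins and the ubiquitin-ligase adaptor CACYBP, was the most abundant of the 10 genes in 5 of the 6 libraries. Its level was 2727 TPM in Hey parental cells, 3634 TPM in Hey PGCCs and 2063 TPM in Hey daughter cells. In SKOV3 it was 6586 TPM in parental cells, 9029 TPM in PGCCs and 733 TPM in daughter cells. It ranked 3rd among all genes of the SKOV3 PGCC library and 153rd in SKOV3 daughter cells, where S100A10 and S100A11 lay above it. SKOV3 daughter cells therefore held the lowest level and SKOV3 PGCCs the highest.

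S100A4 (metastasin), which binds non-muscle myosin IIA and promotes cell motility, showed the widest range. In Hey it was 2.10 TPM in parental cells, 4.0 TPM in PGCCs and 0.255 TPM in daughter cells. In SKOV3 it was 2427 TPM, 4816 TPM and 304 TPM in the same order. In each line the PGCC library was highest and the daughter library lowest, and the lowest SKOV3 level lay above the highest Hey level.

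S100A3, a cysteine-rich member known from the hair cuticle, followed the same order, at lower levels than S100A4 in SKOV3 and at higher levels than S100A4 in Hey. It was 3.12 TPM in parental cells, 6.55 TPM in PGCCs and 2.24 TPM in daughter cells of Hey. In SKOV3 it was 41.0, 75.3 and 28.2 TPM. S100A2, which is best known from squamous and basal epithelium, was 125 TPM in Hey parental cells, 93.6 TPM in PGCCs and 22.0 TPM in daughter cells. In SKOV3 it was 1949, 1863 and 427 TPM, so that for S100A2 the parental library was highest in both lines and the daughter library again lowest.

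S100A10, S100A11 and S100A16 varied less. S100A10, the partner of annexin A2 at the plasma membrane and a plasminogen receptor, was 631, 813 and 648 TPM in Hey parental cells, PGCCs and daughter cells. In SKOV3 it was 1431, 1264 and 800 TPM. S100A11, the partner of annexin A1, was 988, 1539 and 1061 TPM in Hey and 1746, 1582 and 779 TPM in SKOV3, in the same order. Hey PGCCs were highest among the Hey libraries for both genes, and SKOV3 parental cells were highest among all 6. S100A16, a widely expressed member, was 605, 484 and 631 TPM in Hey and 538, 740 and 197 TPM in SKOV3, so that SKOV3 daughter cells alone lay well below the rest.

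The secreted inflammatory members were nearly silent. S100A8 and S100A9, which form calprotectin in neutrophils and monocytes, were listed at 0 in every library except Hey PGCCs, where S100A9 was at 0.114 TPM. S100P, a ligand of the receptor AGER that is known from placenta and pancreatic cancer, was listed at 0 in Hey parental and daughter cells and was 0.317 TPM in Hey PGCCs. In SKOV3 it was 2.77, 2.37 and 0.587 TPM in parental cells, PGCCs and daughter cells. These levels are low enough that their differences depend strongly on the number added before taking logs. More genes were above 0 in Hey PGCCs (25370) than in any other library (19920 to 23893), and its part in these trace values was not tested.

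**Figure D1:**
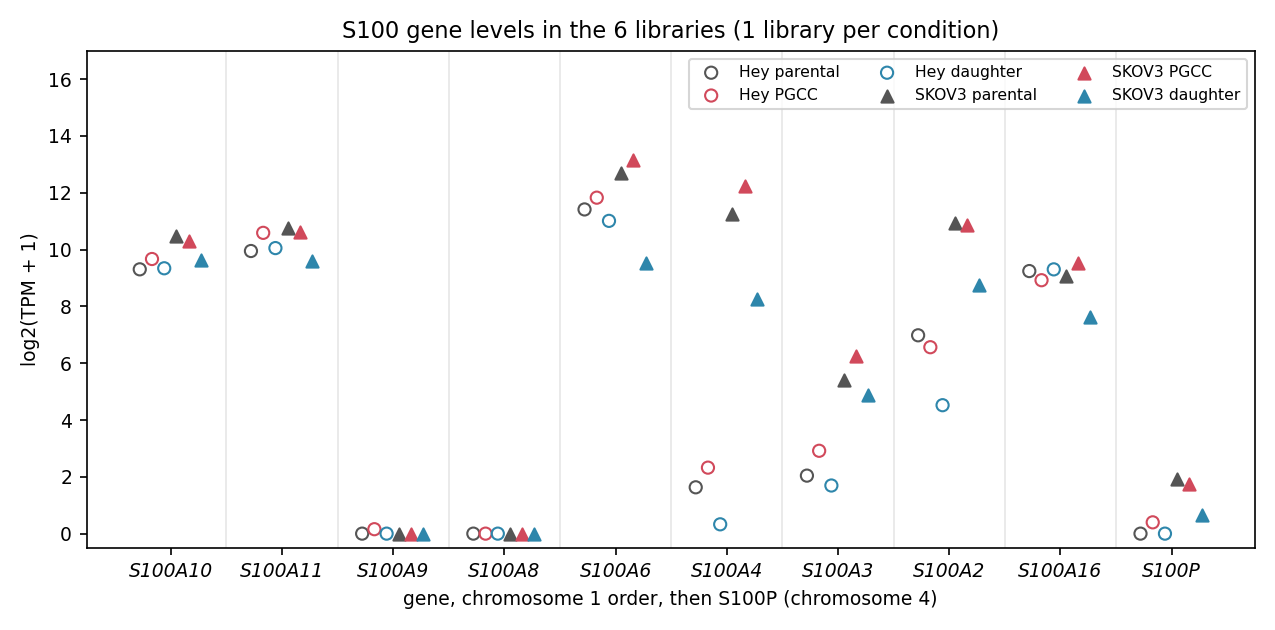
Levels of the 10 S100 genes, as log2(TPM + 1) on the vertical axis, in Hey (open circles) and SKOV3 (filled triangles), with 1 point per library. S100A4 spans from 0.255 to 4816 TPM, whereas S100A8 lies at 0 throughout.

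Summed, the 10 genes reached 5082, 6574 and 4427 TPM in Hey parental cells, PGCCs and daughter cells. In SKOV3 they reached 14721, 19372 and 3270 TPM, or 1.61%, 2.12% and 0.359% of the library's TPM. S100A6 made up 44.7% of the sum in SKOV3 parental cells and 22.4% in SKOV3 daughter cells. S100A2, S100A3, S100A4 and S100A6 together made up 74.7% of the sum in SKOV3 parental cells and 45.6% in daughter cells, against 56.2% and 47.1% in Hey.

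**Figure D2:**
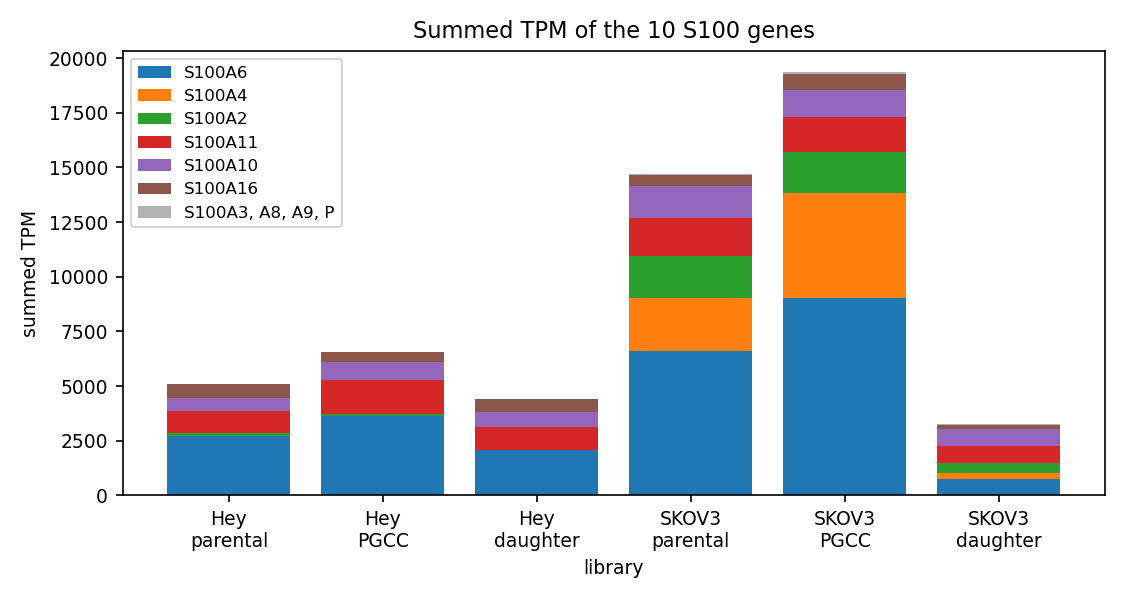
Summed TPM of the 10 S100 genes in each library, as bars stacked by gene and starting at 0. The SKOV3 PGCC bar is the tallest at 19372 TPM and the SKOV3 daughter bar the shortest at 3270 TPM.

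Differences between libraries were computed as differences of log2(TPM + 1), and a gene was counted as higher or lower from a difference of 1 upwards or -1 downwards, which is 2-fold on that scale. For PGCCs compared with parental cells, 0 of the 10 genes passed this limit in either direction in either line. Over all genes 2.58% were higher and 1.4% lower in Hey, and 2.88% and 1.52% in SKOV3. Among the 14988 genes averaging 1 TPM or more these shares were 7.67% and 5.22% in Hey and 9.94% and 4.96% in SKOV3. The members' median difference was 0.38 in Hey and 0 in SKOV3, against 0 and 0 over all genes.

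S100A3 and S100A4 came closest to the limit in PGCCs. S100A3 differed by 0.87 in Hey and 0.86 in SKOV3, and S100A4 by 0.69 and 0.99. Removal of a trend with GC content and transcript length took the SKOV3 value of S100A3 to 0.19. S100A6 differed by 0.41 and 0.46, and its SKOV3 value turned to -0.30, and that of S100A16 to -0.14, when the same trend was removed. The difference between SKOV3 PGCCs and parental cells correlated with GC content across 13468 genes (Spearman 0.72, against -0.045 in Hey), and the part of this trend in the S100 values was not tested otherwise. S100A10 differed by 0.36 in Hey and -0.18 in SKOV3, S100A11 by 0.64 and -0.14, and S100A16 by -0.32 and 0.46.

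A limma moderated test was run over all 6 libraries, with state and cell line as terms. Its spread came from the disagreement between the lines, with 2 residual degrees of freedom. For each gene it was moderated towards a trend fitted over all genes tested, with 5.3 prior degrees of freedom. It tested 8 of the 10 genes, S100A8 and S100A9 being too low. For PGCCs compared with parental cells 0 members had an adjusted p under 0.05 (Benjamini-Hochberg over 14988 genes, of which 0.02% passed) and 0 members had an unadjusted p under 0.05, against 409 genes in all. The smallest unadjusted limma p was that of S100A3, at 0.0564 for a difference of 0.87 (SE 0.383).

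Several S100 genes were lower in daughter cells than in parental cells, more of them in SKOV3 than in Hey by count. In Hey 2 of the 10 genes were lower by 2-fold, S100A2 and S100A4, and 0 were higher. In SKOV3 6 were lower, S100A2, S100A4, S100A6, S100A11, S100A16 and S100P, and 0 were higher. Over all genes 1.97% were higher and 1.08% lower in Hey, and 5.1% and 1.96% in SKOV3. Among genes averaging 1 TPM or more the shares were 6.31% and 3.73% in Hey and 15.1% and 6.34% in SKOV3. The members' median difference was 0 in Hey and -1.21 in SKOV3. Markers also moved in these libraries. MSLN (mesothelin) differed by -4.02 in Hey and -3.58 in SKOV3, KRT19 by -1.80 and -1.85, EPCAM by -0.52 and -2.93 and CD68 by -0.021 and -3.30. Others went the opposite way, WT1 by 1.12 in Hey and 1.34 in SKOV3, KRT7 by 1.32 and 0.22 and CDH1 by 0.040 and 1.92. By count, 1 epithelial marker was higher and 1 lower in Hey, and 1 was higher and 2 lower in SKOV3. Of the ovarian markers 1 was higher and 1 lower in Hey, and 1 was higher and 3 lower in SKOV3. The mitochondrial share was 2.64% (parental) against 7.60% (daughter) for Hey and 9.17% against 14.8% for SKOV3, and the part of these differences in the S100 values was not tested beyond leaving mitochondrial genes out, which left the counts at 2 and 6.

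S100A2 differed by a similar amount in both lines, by -2.46 in Hey and -2.19 in SKOV3, so that parental cells held 5.71 and 4.57 times the TPM of daughter cells. S100A4 differed by -1.30 in Hey and -2.99 in SKOV3 on the log2(TPM + 1) scale, although parental cells held 8.23 and 7.98 times the TPM, since the added 1 weighs on the low Hey values. S100A6 differed by -0.40 in Hey and -3.17 in SKOV3, where parental cells held 8.98 times the TPM. Between the lines S100A6 thus went the same way by very different amounts, a contrast that was not tested.

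The remaining members gave smaller or line-dependent values, and the difference between the lines was not tested. S100A11 differed by 0.10 in Hey and -1.16 in SKOV3, S100A16 by 0.060 and -1.44, and S100A10 by 0.037 and -0.84. The Hey values of these 3 genes lay near 0 and took either sign under the alternatives, from -0.063 to 0.25 for S100A11, from -0.078 to 0.14 for S100A16 and from -0.10 to 0.11 for S100A10. In SKOV3 S100A10 passed the limit under median-ratio scaling alone, at -1.05. S100A3 differed by -0.35 and -0.53, short of the limit in both lines. S100P was at 0 in both Hey libraries and differed by -1.25 in SKOV3, from a parental level of only 2.77 TPM.

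By limma 0 members had an adjusted p under 0.05 for daughter compared with parental cells, where 0.0133% of all genes did. At an unadjusted p under 0.05 there were 3 members, S100A2, S100A4 and S100A6, among 508 genes. S100A2 had the smallest value, a difference of -2.32 (SE 0.345) with an unadjusted limma p of 0.000219 and an adjusted p of 0.465. S100A4 differed by -2.15 with an unadjusted limma p of 0.00432, and S100A6 by -1.78 with 0.0339.

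**Figure D3:**
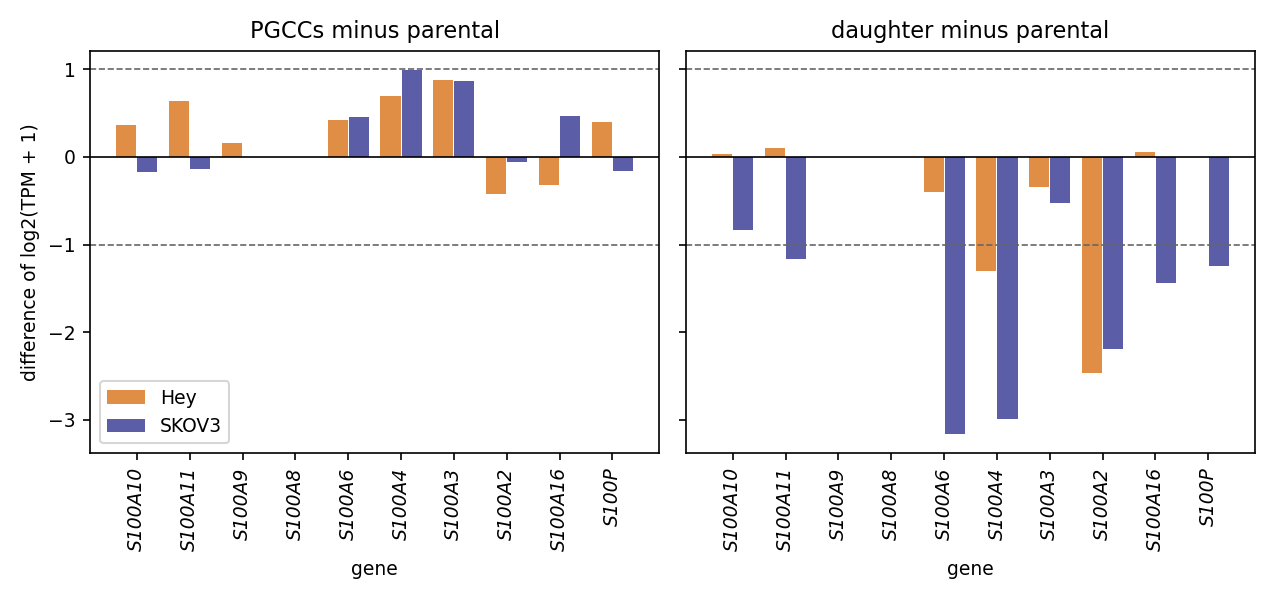
Differences of log2(TPM + 1) from parental cells for PGCCs (left) and daughter cells (right), with Hey in orange and SKOV3 in blue, 1 library against 1, and dashed lines at 1 and -1. No bar passes a dashed line on the left, whereas 2 Hey bars and 6 SKOV3 bars pass -1 on the right.

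PGCCs compared with daughter cells share those daughter libraries, so the values are given side by side. In Hey 3 genes were higher in PGCCs, S100A2 by 2.04, S100A3 by 1.22 and S100A4 by 2.0, and 0 were lower. In SKOV3 7 were higher and 0 lower, with S100A4 at 3.98, S100A6 at 3.62, S100A2 at 2.12, S100A16 at 1.90, S100A3 at 1.39, S100P at 1.09 and S100A11 at 1.02. S100A3, S100P and S100A11 no longer passed in SKOV3 after removal of the GC and length trend, at 0.78, 0.82 and 0.73. S100A11 also fell short under quantile normalization (0.90) and with mitochondrial genes left out (0.90). Over all genes 2.65% were higher and 2.76% lower in Hey, and 2.79% and 4.8% in SKOV3. Among genes averaging 1 TPM or more the shares were 8.13% and 9.95% in Hey and 9.25% and 14.6% in SKOV3. By limma 0 members had an adjusted p under 0.05, as did 0% of all genes, while 4 members, S100A2, S100A3, S100A4 and S100A6, were among the 758 genes with an unadjusted p under 0.05.

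The cell lines differed most in S100A4. SKOV3 parental cells held 1157 times the S100A4 TPM of Hey parental cells, SKOV3 PGCCs 1203 times that of Hey PGCCs and SKOV3 daughter cells 1193 times that of Hey daughter cells. For S100A2 the SKOV3 level was 15.5, 19.9 and 19.4 times the Hey level in the same order. For S100A3 it was 13.2, 11.5 and 12.6 times. Within each of these 3 neighbouring genes the ratio between the lines was of similar size in every state. The S100A4 ratios divide by Hey levels of at most 4.0 TPM, so their size is uncertain. On the log2(TPM + 1) scale the S100A4 differences (Hey minus SKOV3) were -9.61, -9.91 and -7.93 in the same order.

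By limma S100A4 was lower in Hey, with a difference (Hey minus SKOV3) of -9.15 (SE 0.431, adjusted p = 0.000112), as were S100A2 at -4.16 (SE 0.282, adjusted p = 0.000256) and S100A3 at -3.29 (SE 0.313, adjusted p = 0.000797), with each gene lower in 3 of 3 states. These 3 of the 8 members tested stand beside 20.6% of all genes that passed. For this contrast the 3 states were the only repeats of a line, and PGCCs and daughter cells derive from the parental line. The limma p-values therefore set the gap against its constancy over related states, moderated by the spread over all genes, not against variation between independent cultures. Without the PGCC libraries 0 members and 0 of all genes passed, the smallest adjusted limma p being 0.0717. S100P differed by -1.31, with an adjusted p of 0.105 in limma that became 0.0304 without the daughter libraries. S100A10 differed by -0.71, with an adjusted p of 0.141 in limma.

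Counted by state, 6 genes were lower in Hey than in SKOV3 parental cells (S100A2, S100A3, S100A4, S100A6, S100A10 and S100P) and 0 were higher, against 6.88% and 3.15% of all genes, or 24.2% and 11.5% of those averaging 1 TPM or more. In PGCCs 5 were lower, the same genes without S100A10, and 0 were higher, against 8.2% and 4.14% of all genes, or 29.6% and 13.4%. In daughter cells 3 were lower (S100A2, S100A3 and S100A4) and 2 were higher (S100A6 and S100A16), against 9.26% and 3.57% of all genes, or 29.5% and 12.3%. For S100A6 the difference (Hey minus SKOV3) was -1.27 between parental cells, -1.31 between PGCCs and 1.49 between daughter cells. Under median-ratio scaling, which moved the median of all genes from -0.27 to 0 between the parental libraries, S100A6 (-0.95) and S100A10 (-0.86) no longer passed in parental cells. Nor did they after removal of the GC and length trend, at -0.81 and -0.56, which also took S100A6 to -0.28 and S100P to -0.99 between PGCCs.

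Genes lying beside the cluster were examined after the values had been seen. Within 500 kb of the stretch from S100A6 to S100A2, 9 S100 genes and 12 other genes averaged 1 TPM or more. In SKOV3 daughter compared with parental cells 6 of the 9 S100 genes were lower by 2-fold, with a median of -2.19, against 6.34% of all genes averaging 1 TPM or more. Of these 6, S100A2, S100A4, S100A6 and S100A16 are members whose lower values prompted the look, and S100A5 and S100A14 are not members. Of the 12 other genes 0 were lower and 0 higher, and their differences ran from -0.51 to 0.77 with a median of 0.36. All 12 lay on the same side of the stretch, beyond S100A1, so the other side is not covered. In Hey 3 of the 9 S100 genes (S100A1, S100A2 and S100A4) were lower and 0 of the 12 others were, against 3.73% of all genes averaging 1 TPM or more. S100A2 and S100A4 are again members whose lower values prompted the look. S100A4 and S100A1 were low already in Hey parental cells, at 2.10 and 3.43 TPM.

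**Figure D4:**
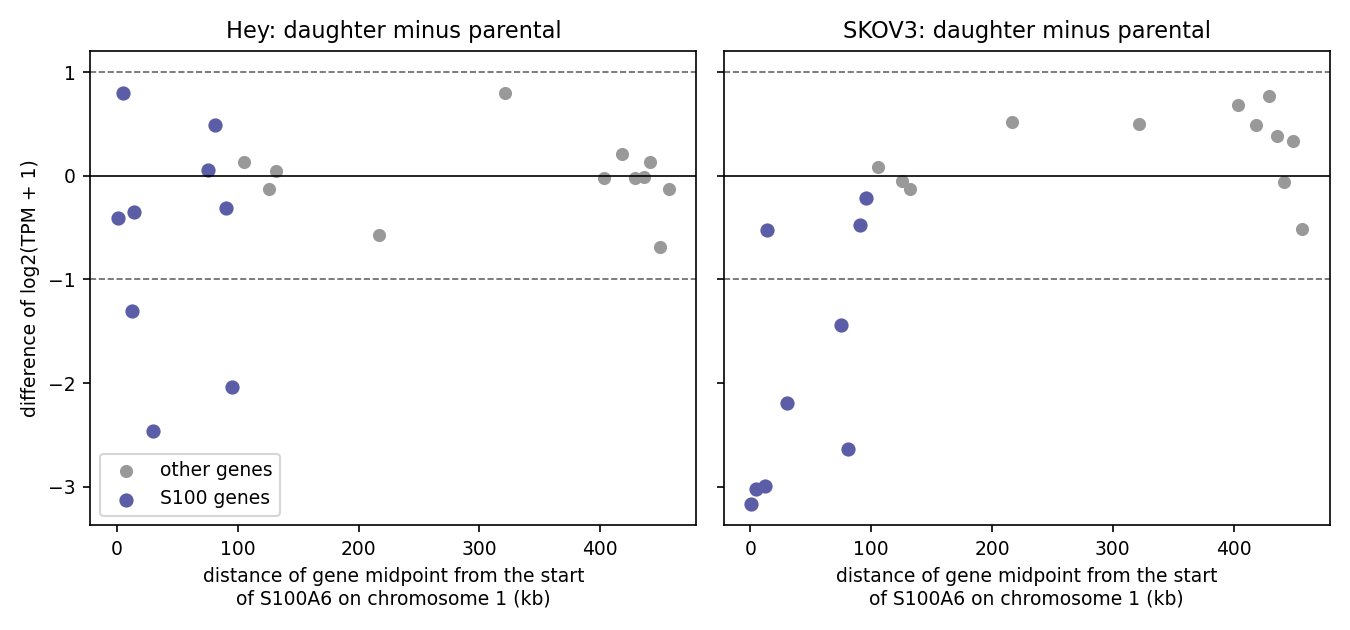
Difference of log2(TPM + 1) between daughter and parental cells for the 21 genes near the S100 cluster, against the distance in kb of each gene's midpoint from the start of S100A6, with S100 genes in blue, other genes in grey and dashed lines at 1 and -1. The grey points stay between the dashed lines in both lines, and in SKOV3 6 blue points lie below -1.

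Among the 11 other S100 genes, those that reached 10 TPM were S100A13, S100A5 and S100A1. S100A13, a chaperone for the release of signal-less growth factors, was 584, 571 and 471 TPM in Hey parental cells, PGCCs and daughter cells and 502, 602 and 362 TPM in SKOV3. S100A5, which lies between S100A6 and S100A4, was 25.5, 44.7 and 2.26 TPM in SKOV3, a daughter difference of -3.02, and at most 3.65 TPM in Hey. S100A1 was 3.43 TPM in Hey parental cells and 0.0788 TPM in Hey daughter cells, a difference of -2.04, while in SKOV3 it was 9.68, 11.6 and 8.20 TPM. S100A1 overlaps S100A13 on the opposite strand, so their reads may be mixed. In daughter compared with parental cells 1 of the 11 was lower and 0 higher in Hey, and 2 were lower and 2 higher in SKOV3, and the 7 fused-type S100 genes, such as filaggrin, were all under 1 TPM.

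Annexins are the membrane partners of several S100 proteins. ANXA2, the partner of S100A10, was 3664, 3846 and 1969 TPM in Hey and 2605, 2616 and 2806 TPM in SKOV3. The ratio of S100A10 to ANXA2 was 0.172, 0.211 and 0.329 in Hey and 0.549, 0.483 and 0.285 in SKOV3. It was thus higher in daughter than in parental cells of Hey and lower in those of SKOV3. The ratio of S100A11 to ANXA1 was 0.559, 0.704 and 0.608 in Hey and 1.13, 1.21 and 0.432 in SKOV3. Of the 5 annexin and scaffold genes 0 were lower in daughter than in parental cells of either line and 2, ANXA11 and AHNAK, were higher in SKOV3.

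CACYBP, the S100A6 target, was 153, 94.7 and 139 TPM in Hey and 304, 97.3 and 110 TPM in SKOV3. MYH9, the myosin heavy chain bound by S100A4, was between 141 and 251 TPM in all libraries, including those of Hey in which S100A4 was at most 4.0 TPM. The receptor AGER was at most 6.51 TPM. PLAT, the tissue plasminogen activator whose action S100A10 assists, was 22.6, 126 and 9.39 TPM in Hey and 16.1, 28.5 and 12.4 TPM in SKOV3, with PGCCs highest in both lines.

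By count, daughter compared with parental cells had 0 higher and 1 lower (MCAM) of the 5 receptor genes in Hey, and 2 higher (TLR4 and MCAM) and 0 lower in SKOV3. These SKOV3 levels were low, with TLR4 at 0.0668 TPM in parental and 2.65 TPM in daughter cells, and MCAM at 0.616 and 4.01 TPM. Of the 6 intracellular targets 0 were higher and 2 lower (CACYBP and SUGT1) in SKOV3. PLAT was lower by 2-fold in Hey daughter cells. For these daughter counts and those of the other lists above, the shares over all genes were 1.97% higher and 1.08% lower in Hey. In SKOV3 they were 5.1% and 1.96%, or 15.1% and 6.34% of genes averaging 1 TPM or more. In PGCCs compared with parental cells the genes past 2-fold among those reported from these lists were TLR4 and PLAT, higher in Hey, and AGER, higher, and CACYBP, lower, in SKOV3. TLR4 was only 0.196 TPM in Hey parental cells and 2.75 TPM in PGCCs, and AGER 2.13 and 6.51 TPM in those of SKOV3. Of all genes, 2.58% were higher and 1.4% lower in this comparison in Hey, and 2.88% and 1.52% in SKOV3.

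The genes most alike in pattern were found by the root mean square difference of centred log2(TPM + 1) over the 6 libraries among 8578 genes, as a description with no test. The nearest gene was EPHX1 for S100A2 (0.602), ID2 for S100A3 (0.346), TIMP2 for S100A6 (0.403), NTAN1 for S100A10 (0.108), GOSR2 for S100A11 (0.125) and DUSP7 for S100A16 (0.196). For S100A4 the nearest, LINC02582, stood at 1.14, the widest gap among these genes. Of member pairs, S100A10 and S100A11 were the closest at 0.318. Many other genes were closer still, as S100A11 ranked 397th in likeness to S100A10, and S100A10 ranked 124th in likeness to S100A11.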

How the data were processed

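Total RNA of 6 libraries (Hey and SKOV3; parental cells, PGCCs and daughter cells, 1 each) was sequenced, and reads were quantified by the authors on the human transcriptome (hg38) with Salmon 0.14.1, with fastp also named in the submitters' processing notes. The authors deposited TPM values, 1 per gene symbol and library. How transcripts were combined into symbols, the annotation release and bias options are not given in the sources used here. TPM carries no read counts, so the depth behind a value is unknown and no counting error was given. Columns summed to between 911825 and 920497 TPM.

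Samples were grouped by their labels. Differences of log2(TPM + 1) were computed between single libraries, with 2-fold as a limit of size and no p-value, which understates changes of low genes. limma 3.58.1 in R 4.3.3 was fitted to log2(TPM + 1) of the 14988 genes averaging 1 TPM or more, with state and line as terms, eBayes with trend and Benjamini-Hochberg adjustment, two-sided. Other steps used Python 3.11.15 with statsmodels 0.14.6, scipy 1.17.1, pandas 2.3.3 and numpy 2.4.6. The steps were tested on simulated data.

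Alternatives were a pseudocount of 0.1, a filter at a mean TPM of 1, median-ratio scaling, quantile normalization, mitochondrial genes left out, and removal of a GC and length trend by lowess (fraction 0.3, 2 passes). For limma they were the pseudocount of 0.1, all genes above 0, median-ratio scaling, no trend and, between lines, each state left out. The neighbouring genes were added after seeing the data. The text names all 10 members, other S100 genes with at least 10 TPM in any library, and partner and marker genes from lists by role. The members and lists were chosen with earlier results of these data known. Some genes of these lists are not reported here.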

Additional observations from a re-analysis of the deposited data

Results flagged for a closer look

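The daughter cells of the lines differed in opposite directions from their parental cells for a pair of S100 genes, each comparison resting on 1 library against 1. S100A11 differed by 0.10 in Hey and by -1.16 in SKOV3. S100A16 differed by 0.060 in Hey and by -1.44 in SKOV3. For PGCCs compared with daughter cells, S100A16 differed by -0.38 in Hey and by 1.90 in SKOV3, a comparison that shares the daughter libraries with the first. The difference between the lines was not tested in any of these cases, and the Hey daughter-to-parental values took either sign under the processing alternatives.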

How the results depend on the processing

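Of the 108 counts of members past 2-fold under an alternative, 102 stayed within 1.5 times the reported count, and no difference that passed the limit changed sign. The filter at a mean TPM of 1 removed only S100A8 and S100A9, which passed in no reported comparison, so it could not change a count. Many of these counts, and of the limma counts below, were 0 and stayed 0, which was scored as staying within 1.5 times. With a pseudocount of 0.1 the members higher in Hey PGCCs than in parental cells numbered 3 in place of 0 (S100A3, S100A9 and S100P), those higher in Hey PGCCs than in daughter cells 5 in place of 3, and those higher in Hey than in SKOV3 PGCCs 1 in place of 0 (S100A9). These alternatives differ only in the number added, which weighs on values near 0. With mitochondrial genes left out, S100A3 passed in Hey PGCCs compared with parental cells, a count of 1. With the GC and length trend removed, members higher in SKOV3 PGCCs than in daughter cells numbered 4 in place of 7, and those lower in Hey than in SKOV3 PGCCs 3 in place of 5. The cause was not tested in either case. The 6 members lower in SKOV3 daughter cells and the 2 lower in Hey daughter cells stayed within 1.5 times under all 6 alternatives. Of the 19 limma counts 18 stayed within 1.5 times the reported count, one of them at 4 in place of 3 without the 2 daughter libraries (S100P added), and without the 2 PGCC libraries 0 members passed between the lines in place of 3, with 1 residual degree of freedom. Replicate numbers pair nothing, because each condition has 1 library. The only pairing was of states within a line, which the cell line term of limma took into account. With no replicates and no read counts, differences of low genes such as S100A9 and S100P cannot be set against any error.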
